A study of Mus musculus with 12 samples.

Results

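The transcripts described here are those of 10 genes of the TNF and IL-1 cytokine systems in tumour-associated macrophages (TAMs). They were picked by name, and each of them had its own row among the 24781 rows of the table. The set holds the cytokine gene Tnf with its receptor genes Tnfrsf1a and Tnfrsf1b, the IL-1 genes Il1a and Il1b, their antagonist gene Il1rn and decoy receptor gene Il1r2, the IL-18 gene Il18 with its binding protein gene Il18bp, and the caspase gene Casp1. All mice were wild type and carried a tumour of MC38, a mouse colon adenocarcinoma line. They were injected with picrotoxin, an antagonist of the ionotropic GABA type A receptor, or with the solvent DMSO, into the peritoneum, from the day before the tumour cells were placed in the skin and every other day from then on. The study drew on adult wild-type mice of both sexes and of the C57BL/6J or C57BL/6N strain, and the labels do not give age, sex or strain for these animals. On day 7 after inoculation, 100 cells that stained for CD45 and CD11b and strongly for F4/80 were sorted from a tumour for each library. Each group had 6 libraries, with the numbers 1 to 6. The figure text of the study gives fewer mice than libraries, so n = 6 counts libraries. Shared mice would make the p-values too small. The question was whether blocking the GABA type A receptor in the animal shifted these transcripts in TAMs. The drug was given to the whole mouse, so the comparison is between macrophages of treated animals and not between macrophages treated directly.

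RNA was counted as molecules, that is, as molecular barcodes attached during reverse transcription from an oligo-dT primer. Library totals ran from 201697 to 309617 molecules. The sort was checked against marker genes. All 11 macrophage markers were found in every library, with 1871 to 2981 molecules in DMSO and 2079 to 2849 in picrotoxin libraries. Monocyte markers summed to 221 to 365 and 252 to 383 molecules, in that order. Neutrophils, a rich source of Il1b and Il1r2, were nearly absent by their markers: 7 of 9 were at 0 in every library, S100a9 and Ly6g among them, and the sum was at most 6 molecules. T and NK cell, B cell, dendritic cell, and mast cell and basophil markers each summed to 7 or fewer, and the epithelial markers of the MC38 list to between 8 and 21. Nearly all of the latter were Cdh1, with 152 molecules in the 12 libraries, while Krt18, Krt19 and Epcam were at 0 in every library and Krt8 had 2 molecules. Fibroblast and matrix transcripts were uneven, with 12 to 737 molecules in DMSO and 7 to 51 in picrotoxin libraries. DMSO replicate 5 held 737 of them and DMSO replicate 3 held 155. Within each group, libraries numbered 1 and 2 also stood apart from those numbered 3 to 6 on the second principal component of 3741 genes (13.3% of the variance). DMSO replicates 1 and 2 lay at 12.5 and 8.85 against at most 6.55 in the rest of their group. Picrotoxin replicates 1 and 2 lay at 1.52 and 0.01 against at most -5.68. On the first component (18.2%) replicates 1 and 2 overlapped with 3 to 6, at 4.95 to 9.98 against -16.6 to 6.78. The labels give no batch, so results are also given for replicates 3 to 6 alone and without DMSO replicates 3 and 5.

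TNF is made by macrophages as a membrane protein that the protease ADAM17 releases. It binds TNFR1, the product of Tnfrsf1a, which carries a death domain and is found on most cells, and TNFR2, the product of Tnfrsf1b, which lacks a death domain and is found mainly on leukocytes and endothelium. IL-1α and IL-1β share a signalling receptor, Il1r1. The product of Il1rn occupies that receptor without signalling, and the product of Il1r2 binds the cytokine as a decoy. IL-1β and IL-18 are made as inactive precursors that caspase-1 cuts inside inflammasomes, and the Il18bp product neutralises IL-18. Transcript counts therefore speak only of the first step of these systems and not of the released cytokine.

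Cytokine transcripts of this kind are known for short lives, which AU-rich stretches of the 3′ untranslated region set. The repeated nonamer of Tnf is shown because it sets this gene apart in sequence from the rest of the set. The stretch began 438 bases after the stop codon, at chr17:35199678-35199707 on the minus strand of GRCm38, and the capitals mark overlapping copies of TTATTTATT.
Tnf: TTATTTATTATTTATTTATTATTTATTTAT
The 3′ untranslated region of Tnf held 5 copies of TTATTTATT on the transcribed strand, all in a stretch of 31 bases of which 30 are printed, and those of the other 9 genes held 0. Of 20707 mouse genes, 7.13% had at least 1 copy. Among genes with a 3′ untranslated region within 20% of the length of that of Tnf, 4.18% did. At the lengths of the other 9 genes this share ran from 0.305% (Casp1) to 11.8% (Tnfrsf1b), so 0 copies was the usual count. The shorter core ATTTA, which overlaps the nonamer, was found 8 times in Tnf, 4 times in Il1b and 3 times each in Il1a and Il18bp. It was found 2 times in Tnfrsf1b and 1 time in Il18. Of the 20707 mouse genes, 62.8% held it at least 1 time. Per kilobase the core was found 10.5 times in Tnf, 8.71 in Il1b and 8.13 in Il18, whose region has 123 bases. The values were 3.48 in Il18bp, 2.72 in Il1a and 0.861 in Tnfrsf1b.

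The start regions of the 3 inducible cytokine genes and of the 2 TNF receptors are shown because they differ in the TATAAA box. Each line gives the 50 bases before and the 20 bases from the RefSeq start site, 5′ to 3′ on the gene's strand, with TATAAA in capitals. They lie at chr17:35201988-35202057 (minus strand, Tnf), chr2:129309953-129310022 (minus, Il1a), chr2:129371120-129371189 (minus, Il1b), chr6:125349673-125349742 (plus, Tnfrsf1a) and chr4:145246851-145246920 (minus, Tnfrsf1b) of GRCm38.
Tnf: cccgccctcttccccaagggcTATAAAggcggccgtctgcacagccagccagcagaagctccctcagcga
Il1a: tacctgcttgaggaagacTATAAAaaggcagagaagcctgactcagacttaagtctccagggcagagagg
Il1b: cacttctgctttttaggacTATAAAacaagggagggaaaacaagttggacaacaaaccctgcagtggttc
Tnfrsf1a: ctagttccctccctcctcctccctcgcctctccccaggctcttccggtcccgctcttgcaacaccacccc
Tnfrsf1b: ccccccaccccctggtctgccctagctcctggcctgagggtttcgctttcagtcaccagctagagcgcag
TATAAA on the gene's strand began 29, 32 and 31 bases before the start of Tnf, Il1a and Il1b. It was in none of the windows of the other 7 genes, and 2.63% of 32851 mouse promoters in RefSeq held it in the same 50 bases. These are descriptions of letters and say nothing of which factors bind.

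None of the 10 transcripts passed the test. Genes were tested by the quasi-likelihood test of edgeR with Benjamini-Hochberg adjustment over all 9580 genes with a mean above 1 normalised molecule, and all 10 were among them. At an adjusted p under 0.05, 0 of the 10 were called, where 0.0522% of all genes were. At an unadjusted p under 0.05, Tnfrsf1a and Tnfrsf1b were higher with picrotoxin, which is 2 of 10 where 7.77% of all genes passed, 3.65% being higher and 4.11% lower with picrotoxin. DESeq2 gave an unadjusted p under 0.05 to 0 of the 10 and to 3.82% of all genes. In none of the 10 did the groups lie apart without overlap, as they did in 0.386% of all genes. The median log2 fold change of the 10 was 0.19, and that of all tested genes was -0.01. In bulk samples like these, a change in the share of cells that hold a transcript and a change in transcript per cell cannot be told apart.

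**Figure D1:**
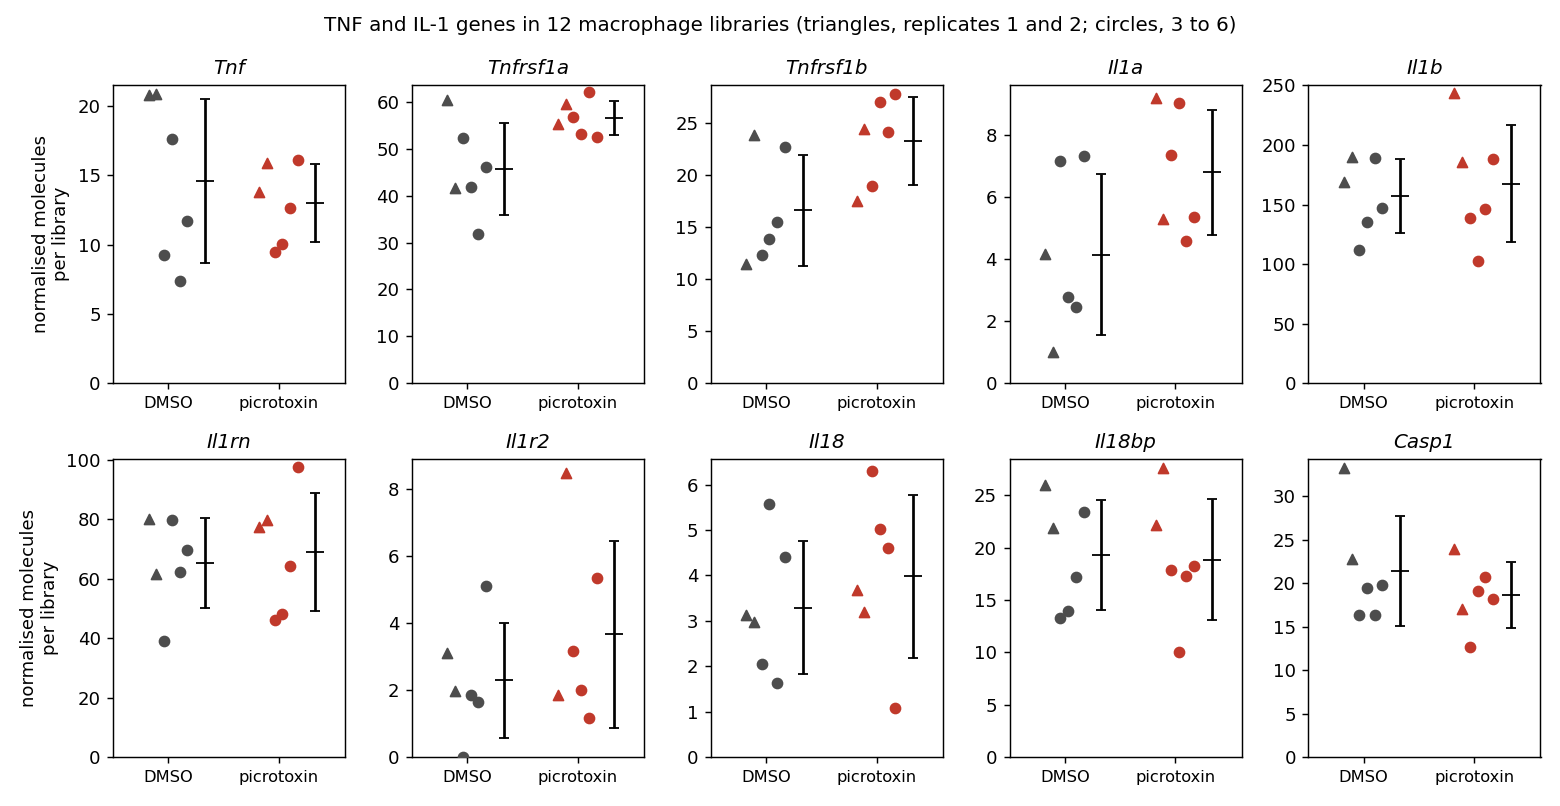
Normalised molecules per library (counts divided by DESeq2 size factors, vertical axes from 0) for each of the 10 genes in 6 DMSO (grey) and 6 picrotoxin (red) libraries. Triangles are replicates 1 and 2, circles are replicates 3 to 6, and bars give mean ± SD (n = 6). The groups overlap in every panel, and the 6 picrotoxin libraries lie above the DMSO mean for Tnfrsf1a, Tnfrsf1b and Il1a.

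Tnf (chr17:35199381-35202007, minus strand) was a modest transcript here, with 9 to 21 molecules in any library. In DMSO libraries its lowest, median and highest normalised count were 7.36, 14.7 and 20.9, and in picrotoxin libraries they were 9.46, 13.2 and 16.1. The picrotoxin values lay wholly inside the DMSO range. The means were 14.6 ± 5.94 and 13.0 ± 2.83 (SD, n = 6), a log2 fold change of -0.13 ± 0.26 (SE; edgeR, adjusted p = 0.951). Its 95% interval ran from -0.65 to 0.39, that is, from 0.638-fold to 1.31-fold. The DMSO values varied by 40.7%, where counting alone would give 25.3%. DMSO replicates 1 and 2, at 20.8 and 20.9, were the highest of all 12 libraries, and DMSO replicates 5 and 3, which held the most matrix transcripts, were the lowest at 7.36 and 9.22. Replicates 3 to 6 alone gave 0.09, whereas the fit without DMSO replicates 3 and 5 gave -0.41 and the fit with the matrix score as a term -0.46. The sign of the Tnf difference thus changed with the libraries used, and in none of these fits did it pass the test. The 7 tested genes of the matrix list were all lower with picrotoxin, 6 of them at an unadjusted p under 0.05 in edgeR. None of them was called after adjustment. The score therefore goes with the group, and in every fit that holds it the 2 effects cannot be fully told apart.

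Both TNF receptor transcripts were higher with picrotoxin before adjustment. Tnfrsf1a (chr6:125349362-125362484, plus strand) had its lowest, median and highest normalised count at 31.9, 43.9 and 60.3 in DMSO libraries and at 52.5, 56.0 and 62.1 in picrotoxin libraries. All 6 picrotoxin libraries were above the DMSO mean and 1 was above every DMSO library. The DMSO group was the more scattered, and its lowest value was that of replicate 5. The means were 45.7 ± 9.79 and 56.6 ± 3.71 (SD, n = 6), a log2 fold change of 0.33 ± 0.14 (SE), or 1.25-fold with a 95% interval of 1.03-fold to 1.53-fold. The unadjusted p was 0.0262 and the adjusted p 0.566 in edgeR, and DESeq2 gave 0.0527 and 0.414.

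Tnfrsf1b (chr4:145213463-145246870, minus strand) had its lowest, median and highest value at 11.4, 14.7 and 23.8 in DMSO and at 17.5, 24.3 and 27.9 in picrotoxin libraries. Here too all 6 picrotoxin libraries exceeded the DMSO mean, and 4 exceeded every DMSO library. DMSO replicates 2 and 6, at 23.8 and 22.7, reached into the picrotoxin range while the other four were at or under 15.5. The means were 16.6 ± 5.35 and 23.3 ± 4.24 (SD, n = 6), a log2 fold change of 0.47 ± 0.20 (SE), or 1.39-fold with a 95% interval of 1.04-fold to 1.85-fold. Its unadjusted p was 0.0272 and its adjusted p 0.571 in edgeR, and the unadjusted p was 0.0644 in DESeq2.

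The direction of both receptors held under every alternative run, with log2 fold changes of 0.20 to 0.42 for Tnfrsf1a and 0.34 to 0.60 for Tnfrsf1b. Replicates 3 to 6 alone gave 0.41 and 0.59. Values were smaller where the matrix-rich libraries were taken into account. The matrix genes were themselves lower with picrotoxin, so the score term can take up part of the group difference. Without DMSO replicates 3 and 5, Tnfrsf1a was at 0.26 (unadjusted p = 0.0918, edgeR) and Tnfrsf1b at 0.34 (unadjusted p = 0.129), and with the matrix score as a term they were at 0.20 (unadjusted p = 0.191) and 0.43 (unadjusted p = 0.0637). The macrophage marker list moved slightly the same way, with 9 of 11 markers higher, a median log2 fold change of 0.15 and an unadjusted p under 0.05 for Itgam (0.38) and Mrc1 (0.48). The part of macrophage content in the receptor values was not tested.

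Of the IL-1 ligands, Il1b (chr2:129364570-129371139, minus strand) gave by far the most counts of the 10 rows, 102 to 264 per library. Its lowest, median and highest normalised count were 112, 158 and 190 in DMSO and 102, 166 and 243 in picrotoxin libraries. Both the lowest and the highest of the 12 values were therefore in the picrotoxin group, in replicates 4 and 1. The means were 157 ± 31.1 and 167 ± 49.1 (SD, n = 6), a log2 fold change of 0.11 ± 0.15 (SE; edgeR, adjusted p = 0.926). The 95% interval was 0.875-fold to 1.33-fold, the narrowest but one of the 10. Replicates 3 to 6 alone gave -0.01, and leaving out picrotoxin replicate 1 gave -0.03.

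Il1a (chr2:129299610-129309972, minus strand), whose product acts as an alarmin without caspase cleavage, was scarce, with 68 molecules in all 12 libraries together. DMSO libraries held 1 to 10 molecules and picrotoxin libraries 4 to 10. In normalised values the lowest, median and highest were 0.993, 3.47 and 7.32 against 4.60, 6.36 and 9.22, and 3 picrotoxin libraries exceeded every DMSO library. The DMSO libraries were split, with replicates 3 and 6 above 7 and the other four at or under 4.16. The means were 4.15 ± 2.60 and 6.81 ± 2.01 (SD, n = 6), a log2 fold change of 0.71 ± 0.37 (SE), the largest of the 10 in size. Neither the unadjusted p (0.0655) nor the adjusted p (0.695, edgeR) passed, and the interval ran from 0.967-fold to 2.75-fold. Replicates 3 to 6 alone gave 0.44, and the alternatives as a whole 0.44 to 0.99. A gene on the other strand, Gm14023, shares 222 exonic bases with Il1a and had 1 molecule in the table.

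The inhibitors of IL-1 did not pass the test either. Il1rn (chr2:24336853-24351494, plus strand), which encodes the receptor antagonist, had its lowest, median and highest value at 38.9, 65.9 and 80.1 in DMSO and at 46.3, 70.9 and 97.5 in picrotoxin libraries. The ranges overlapped over most of their length. The means were 65.4 ± 15.3 and 68.9 ± 19.8 (SD, n = 6), a log2 fold change of 0.08 ± 0.17 (SE; edgeR, adjusted p = 0.951), and without DMSO replicates 3 and 5 the value was -0.08. Il1r2 (chr1:40074079-40125231, plus strand), the decoy receptor gene, had 37 molecules in all. DMSO libraries held 0 to 7 and picrotoxin libraries 1 to 8 molecules, and the 0 of DMSO replicate 3 allows a share of up to 0.0013% of its molecules. With means of 2.29 ± 1.71 and 3.67 ± 2.79 (SD, n = 6), the log2 fold change was 0.59 ± 0.54 (SE; edgeR, adjusted p = 0.863) and its interval ran from 0.702-fold to 3.23-fold. Single libraries moved the Il1r2 value widely, to 0.17 without picrotoxin replicate 2, to 0.36 without DMSO replicate 3 and to 1.04 without DMSO replicate 6. Replicates 3 to 6 alone gave 0.33, the fit without DMSO replicates 3 and 5 gave 0.20 and the matrix score as a term gave 0.28. No change of Il1r2 was detected at these counts, and its interval held both falls and rises. The signalling receptor gene Il1r1 had 1 molecule in all 12 libraries. Its transcript was thus at the limit of detection, while the antagonist transcript Il1rn was counted in every library. Receptor and antagonist protein were not measured.

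On the IL-18 side, Il18 (chr9:50554827-50581840, plus strand) was counted at 2 to 6 molecules in DMSO and 1 to 6 in picrotoxin libraries. Its normalised counts averaged 3.29 ± 1.47 and 3.98 ± 1.79 (SD, n = 6), a log2 fold change of 0.26 ± 0.43 (SE; edgeR, adjusted p = 0.940), which became -0.03 without DMSO replicates 3 and 5 and ran from 0.092 without picrotoxin replicate 3 to 0.45 without DMSO replicate 4. Il18bp (chr7:102014885-102018690, minus strand) had its lowest, median and highest value at 13.3, 19.5 and 26.0 in DMSO and at 10.03, 18.0 and 27.6 in picrotoxin libraries. Its log2 fold change was -0.02 ± 0.22 (SE; edgeR, adjusted p = 0.994) with an interval of 0.723-fold to 1.34-fold. Il18bp shares 80 exonic bases with Numa1 on the other strand, which had 101 molecules to its 237, and whether the counting used strand was not stated. Casp1 (chr9:5298517-5307265, plus strand) ran from 16.4 to 33.3 with a median of 19.6 in DMSO and from 12.6 to 24.0 with a median of 18.6 in picrotoxin libraries. Only 1 picrotoxin library exceeded the DMSO mean, which DMSO replicate 1 raised. The log2 fold change of Casp1 was -0.17 ± 0.20 (SE; edgeR, adjusted p = 0.909). It was -0.01 without DMSO replicate 1 and -0.26 without picrotoxin replicate 1, -0.02 in replicates 3 to 6 alone, -0.33 without DMSO replicates 3 and 5 and -0.32 with the matrix score as a term.

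**Figure D2:**
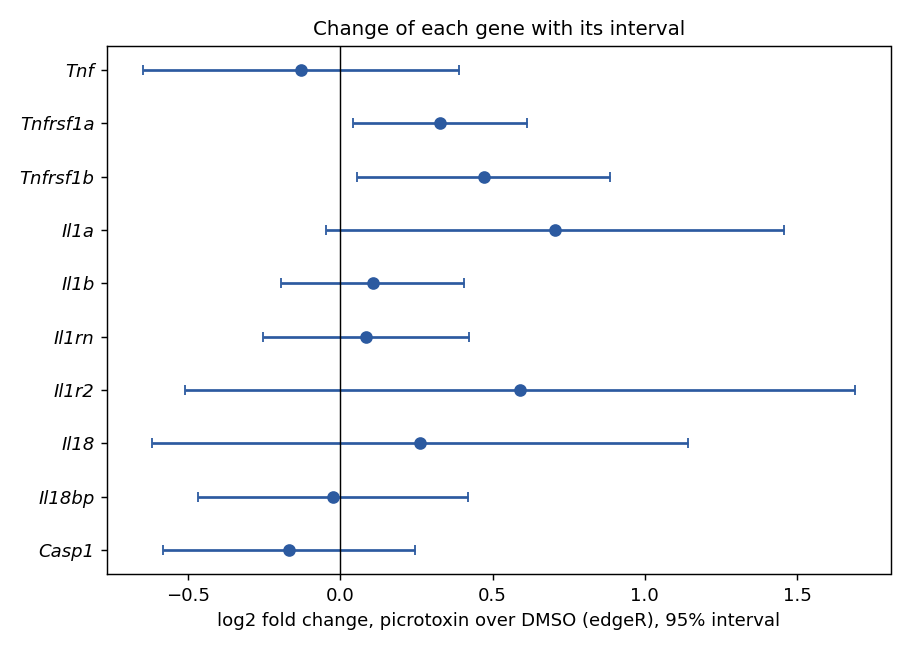
Log2 fold change of picrotoxin over DMSO from edgeR for the 10 genes (horizontal axis), with 95% intervals as bars, from 6 libraries a group. The unadjusted intervals of Tnfrsf1a (0.04 to 0.61) and Tnfrsf1b (0.06 to 0.89) lie above 0, and the other 8 include it.

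Ratios between partners within a library do not depend on how libraries are scaled, and 4 were fixed. The ratio of gene to gene also carries how well each transcript is captured, so only its difference between groups is read. The log2 ratio of Tnfrsf1b to Tnfrsf1a averaged -1.46 ± 0.63 with DMSO and -1.28 ± 0.30 with picrotoxin (SD, n = 6), a difference of 0.18 ± 0.28 (SE; exact two-sided permutation test, p = 0.530, adjusted over the 4 ratios 0.773). It was 0.0073 without DMSO replicate 1, 0.068 without DMSO replicate 3, 0.11 without picrotoxin replicate 6, 0.12 without picrotoxin replicate 4 and 0.32 without DMSO replicate 2. The log2 ratio of Il1rn to Il1b was -1.27 ± 0.35 and -1.27 ± 0.28 (SD, n = 6), and the 2 groups differed by 0.00 ± 0.18 (SE; exact permutation p = 0.987, adjusted 0.987). Antagonist and ligand transcripts thus stood in nearly the same mean ratio in both groups, although the ratio spanned -1.65 to -0.76 across libraries.

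The Il1a to Il1b ratio had the widest separation. Its lowest, median and highest log2 value were -7.00, -5.28 and -3.87 in DMSO and -5.00, -4.74 and -3.43 in picrotoxin libraries, and all 6 picrotoxin libraries were above the DMSO mean. The difference of 0.78 ± 0.53 (SE) did not pass (exact permutation p = 0.180, adjusted 0.719), and the low DMSO end was replicate 2 with a single Il1a molecule. Without that library the difference was 0.44, and with any 1 library left out it was at most 1.06, without DMSO replicate 3. The Il18bp to Il18 ratio averaged 2.44 ± 0.65 with DMSO and 2.18 ± 0.98 with picrotoxin (SD, n = 6), a difference of -0.27 ± 0.48 (SE; exact permutation p = 0.580, adjusted 0.773). With 1 library left out it ran from -0.54, without picrotoxin replicate 6, to -0.019, without picrotoxin replicate 4, and it was -0.11 without DMSO replicates 3 and 5.

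**Figure D3:**
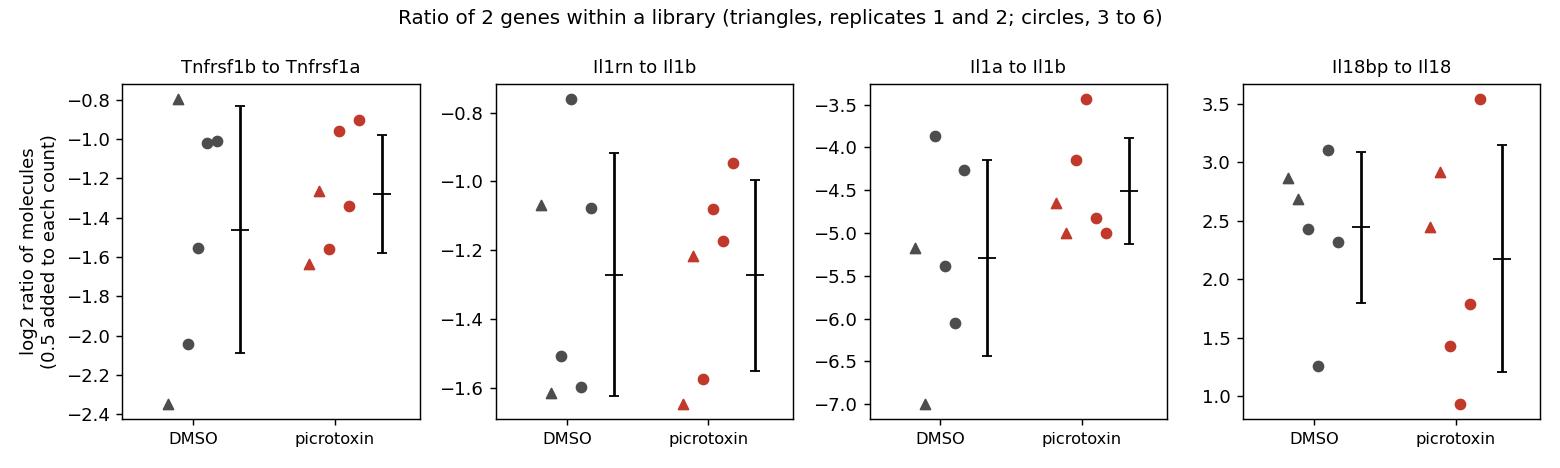
Log2 ratio of the molecules of 2 partner genes in each library (0.5 added to each count; vertical axes do not start at 0), for 6 DMSO (grey) and 6 picrotoxin (red) libraries, with mean ± SD (n = 6). Triangles are replicates 1 and 2, circles are replicates 3 to 6. All 6 picrotoxin libraries lie above the DMSO mean only for Il1a to Il1b, and the groups overlap in every panel.

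The spread between libraries differed among the genes. Il1b varied by 19.8% in DMSO and 29.3% in picrotoxin libraries (coefficient of variation of normalised counts), where counting alone would give 7.60% and 7.84%, and Il1rn varied by 23.4% and 28.8% where counting gives 11.8% and 12.3%. For these transcripts the differences between libraries exceeded the counting error. Tnfrsf1a varied by 21.4% in DMSO but by 6.55% in picrotoxin libraries, under the 13.6% of counting. The scatter of Il18 (44.7% and 45.1%) was no larger than that of counting (52.2% and 51.1%). Il1r2 varied by 74.9% and 76.0%, above the 61.2% and 53.5% of counting. Part of the spread followed the library numbers. Il1b had mean normalised counts of 179 in DMSO replicates 1 and 2 against 146 in replicates 3 to 6, and of 215 against 144 in picrotoxin libraries. Il18bp (23.9 against 17.0, and 24.9 against 15.8) and Casp1 (28.1 against 18.0, and 20.5 against 17.6) likewise had higher means in replicates 1 and 2 of both groups. Tnf did so mainly in DMSO (20.8 against 11.5) and less in picrotoxin libraries (14.9 against 12.1). Tnfrsf1b did not share this order, with 17.6 against 16.1 in DMSO and 21.0 against 24.5 in picrotoxin libraries. Single libraries also broke the order of the means. Casp1 was at 24.0 in picrotoxin replicate 1 but at 17.0 in replicate 2, under the 20.7 of replicate 5. Il1b was at 169 in DMSO replicate 1, under the 189 of DMSO replicate 5.

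The genes that surround this set were taken from 8 lists of 108 names, of which 71 were tested. None was called at an adjusted p under 0.05 in edgeR, and 4 of the 71 had an unadjusted p under 0.05, 1 higher and 3 lower. Of all tested genes 7.77% passed, 3.65% being higher and 4.11% lower. DESeq2 called 0, with 1 at an unadjusted p under 0.05, where 3.82% of all genes passed. It left low-count genes such as Tnf and Tnfrsf1b without an adjusted p, and genes without one could not be called. The median log2 fold change of the 71 was 0.03.

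Among the IL-1 family, 13 names gave 13 rows, 6 had no molecule and 4 were tested, all with lower values in picrotoxin libraries (median log2 fold change -0.41). Il33 and the IL-36 genes were among those at 0. Il1rl1, which encodes the IL-33 receptor, averaged 5.14 ± 5.60 with DMSO and 1.96 ± 1.58 with picrotoxin (SD, n = 6) and had a log2 fold change of -1.39 ± 0.63 (SE; edgeR, unadjusted p = 0.0350, adjusted p = 0.620). Its highest value, 15.5, was in DMSO replicate 5, the library richest in matrix transcripts, and the part of those cells in it was not tested. Of 12 genes of IL-1 and Toll-like receptor signalling, 6 were higher and 6 lower. Irak2, a kinase-like adaptor that carries the signal to TRAF6, had means of 6.86 ± 1.92 and 10.2 ± 2.74 (SD, n = 6), a log2 fold change of 0.61 ± 0.28 (SE; edgeR, unadjusted p = 0.0361, adjusted p = 0.621), and was above the DMSO mean in 6 of 6 picrotoxin libraries.

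Of 10 inflammasome genes, 9 were higher and 1 lower, with log2 fold changes from -0.20 to 0.49 and 0 at an unadjusted p under 0.05 in edgeR. Pycard, which encodes the adaptor ASC, had means of 53.6 ± 8.74 and 55.6 ± 8.03, and Txnip, a redox protein that binds NLRP3, had 25.8 ± 5.11 and 27.8 ± 2.91 (SD, n = 6). Among 17 genes of the TNF receptor complexes, 8 were higher and 9 lower. Ripk3, the kinase of necroptosis, had the smallest p of the 71 genes. It averaged 12.5 ± 2.47 with DMSO and 7.30 ± 2.89 with picrotoxin (SD, n = 6), with 5 of 6 picrotoxin libraries under the DMSO mean, and its log2 fold change was -0.75 ± 0.27 (SE; edgeR, unadjusted p = 0.00778, adjusted p = 0.408).

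Of 6 genes listed around the shedding of TNF, 4 were tested, of which 2 were higher and 2 lower. Adam10, a protease related to the TNF convertase, had means of 68.1 ± 7.73 and 78.0 ± 12.5, and Furin, which activates such proteases, had 68.1 ± 15.3 and 57.5 ± 12.6 (SD, n = 6). Of the 9 genes listed for cytokine mRNA stability, 6 were higher and 3 lower. Among the lower values, Ptgs2 (log2 fold change -0.12), encodes cyclooxygenase-2 and is itself an AU-rich message, not a factor acting on them. Elavl1, which encodes the RNA-binding protein HuR that protects AU-rich messages, had means of 23.0 ± 3.45 and 17.2 ± 3.49 (SD, n = 6). It was below the DMSO mean in 6 of 6 picrotoxin libraries. Its log2 fold change was -0.40 ± 0.19 (SE) in edgeR (unadjusted p = 0.0399, adjusted p = 0.621), where the median of this list was 0.07. Whether Elavl1 bears on Tnf was not tested.

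Other members of the TNF superfamily were scarce. Of 16 ligands, 7 had no molecule and 6 were tested, all 6 with lower values (median log2 fold change -0.36, none at an unadjusted p under 0.05). Tnfsf12, the TWEAK gene, had means of 11.9 ± 4.98 and 10.8 ± 4.88, and Tnfsf13b, which encodes the B cell survival factor BAFF, had 7.68 ± 3.50 and 4.99 ± 2.75 (SD, n = 6). Of 25 receptors, 9 were tested, 6 higher and 3 lower. Tnfrsf11a, the RANK gene, had means of 17.2 ± 5.65 and 19.5 ± 4.30, and Cd40 had 15.2 ± 5.20 and 18.2 ± 4.76 (SD, n = 6). No list of the 8 held a called gene, and each median lay between -0.41 and 0.11.

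**Figure D4:**
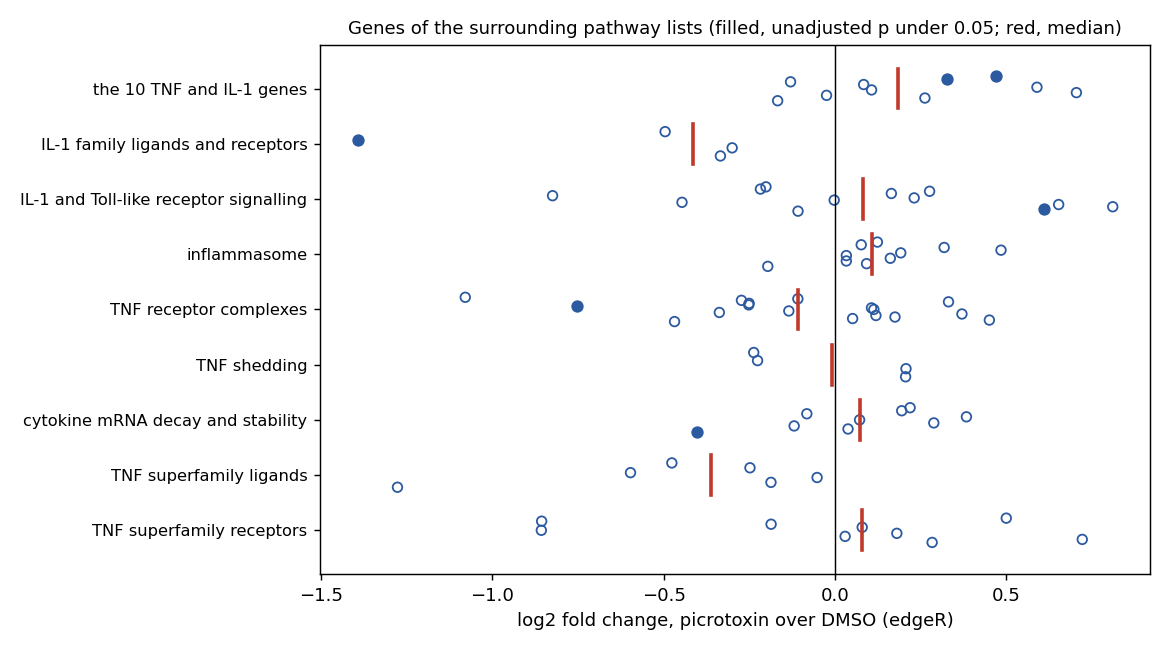
Log2 fold change of picrotoxin over DMSO (edgeR, horizontal axis) for the tested genes of the 10-gene set and of 8 surrounding lists, 1 circle a gene, with the median of each list as a red bar and genes with an unadjusted p under 0.05 filled. The 4 filled circles outside the 10-gene set are Il1rl1, Irak2, Ripk3 and Elavl1.

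The genes most like each transcript across libraries were ranked over the 12 libraries by Pearson's r of log2 CPM, among genes with a mean of at least 10. The points share their libraries, depth and group, so the r values are descriptions. They were also picked as the highest among 3740 or 3741 genes, which alone favours high values. Values for replicates 3 to 6 come from libraries used in that picking and are no independent check. Tnf was followed most closely by Entpd1 (r = 0.967), which encodes the ectonucleotidase CD39, then by Zbp1 (0.902) and Lap3 (0.891). Tnfrsf1b was nearest to Nos2 (r = 0.938), the inducible nitric oxide synthase gene, and Hip1 had an r of 0.871. Tnfrsf1a was nearest to Tgtp2 (0.870), Dtx3l (0.826) and Oas1g (0.822), and Casp1 to Oasl1 (0.871), Herc6 (0.856) and Tap1 (0.849). Tgtp2, Oas1g, Oasl1, Herc6 and Tap1 are interferon-inducible genes. Genes like Il18bp included Uqcr10 (0.886) and Gsdmd (0.871), the second of which encodes the pore protein that inflammasome caspases open. In replicates 3 to 6 alone the r of Tnf with Entpd1 was 0.971 and that of Tnfrsf1b with Nos2 was 0.960, whereas that of Tnf with Zbp1 was 0.806 and those of Casp1 with Herc6 and Tap1 were 0.727 and 0.583. The nearest genes of Il1b were Morf4l1 (0.862), Atp5b (0.848) and Morf4l1b (0.848), and those of Il1rn were Tmem229b (0.846), Rilpl2 (0.836) and Rab7b (0.832). Il1a (Eed, 0.865), Il1r2 (Msr1, 0.847) and Il18 (Setd2, 0.838) had at most 10 molecules in any library, and their r values rest on counts of that size.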

How the data were processed

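RNA of 12 libraries, 6 per group, was analysed. The table deposited by the authors gives counts, in whole numbers, of molecular barcodes per gene symbol. It was made, per the labels, from heat-fragmented RNA of 100 sorted cells with oligo-dT priming, mapped with STAR to mm10. How multiply mapped reads, strand and barcode errors were treated is not given in the sources used here. The labels describe independent library preparations and the methods 1 library per mouse, whereas the figure text of the study gives fewer mice. Which libraries would share a mouse is not stated, and shared mice would make the p-values too small. Chi-square per degree of freedom between libraries of a group was 1.23 to 3.15 over 30 pairs, and none was treated as a copy.

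Counts were tested as deposited by edgeR 4.0.16 (glmQLFit, glmQLFTest, TMM; R 4.3.3) in the 9580 genes with a mean above 1 normalised molecule, with Benjamini-Hochberg adjustment over all of them. This filter and the DESeq2 Wald test are those of the study. Normalised molecules are counts divided by DESeq2 size factors, and the SE was derived from the fold change and its F statistic. Alternatives used DESeq2 1.42.0, limma-voom 3.58.1, other scalings and filters, subsets of libraries, covariates and a replicate block. Log2 ratios (0.5 added) were tested by exact permutation, two-sided, of all 924 assignments, whose smallest p is 0.0022. Library totals give intervals and limits (3 molecules for a count of 0) that cover counting error only. The tests were tested on simulated data. Same-numbered libraries did not deviate together (correlations -0.016 to 0.047, 0 of 6 pairs above 0.1), so the numbers were not taken to pair them.

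The text names the 10 genes, each tested gene of a list with an unadjusted p under 0.05 or otherwise its 2 most counted genes, and the 3 genes most like each of the 10 by r (the nearest alone for Il1a, Il1r2 and Il18). The results of 2 of these are not reported here. Other names were chosen after their values were seen: Il1r1, Il33, the IL-36 genes, Ptgs2 and the marker genes named. The genes and lists were chosen with earlier results of these data known, and sequence motifs were chosen likewise. Of the listed names, 4 were matched by older symbols. Positions are those of GENCODE vM21 on GRCm38 (mm10), which differs from the annotation the authors counted with, and promoters are from RefSeq (GRCm38.p6, all 10 genes matched). Untranslated regions are those of 1 principal transcript per gene.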

Additional observations from a re-analysis of the deposited data

Results flagged for a closer look

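Within groups of 6 libraries, 46 sums and counts were examined for a single library far from the rest by Dixon's criterion, and 4 stood out, where chance alone gives about 1 in 20. None of them was among the 20 examined for the 10 genes or among the ratios. Fibroblast and matrix markers summed to 737 molecules in DMSO replicate 5 against 12 to 155 in the other DMSO libraries. Monocyte markers summed to 383 in picrotoxin replicate 4 against 252 to 297 in the other picrotoxin libraries, and this library had the lowest Il1b and Il18bp of its group. T and NK cell markers gave 1 molecule in DMSO replicate 1 against 0 in the others, and B cell markers gave 1 molecule in picrotoxin replicate 3, where the rest of its group had 2 each. Whether these cells bear on the cytokine transcripts was not tested.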

How the results depend on the processing

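None of the 10 genes was called in any of 24 alternatives, but not every alternative could call each of them. DESeq2 gave an adjusted p only to Tnfrsf1a, Il1b and Il1rn, and the filter at a mean above 10 left 7 genes in the test. The count over all genes, 5 in edgeR, was 3 with limma-voom, 13 with library totals, 12 without Rn45s, 81 with every counted gene, 49 in replicates 3 to 6, 27 with library numbers 1 and 2 as a term, 1 without DMSO replicates 3 and 5, and 0 with the matrix score as a term (562 at an unadjusted p under 0.05). The study's rule, an unadjusted p in DESeq2, gave 366. Leaving out 1 library gave 0 to 25 (607 to 831 unadjusted): 0 when DMSO 5, DMSO 6, picrotoxin 2, picrotoxin 3 or picrotoxin 4 was dropped, 1 when DMSO 3 or picrotoxin 1 was, 3 when picrotoxin 5 was, and 25, 23 and 15 when DMSO 1, 2 and 4 were. The cause was not tested. The replicate block gave 43 calls, none among the 10 genes. No library correlated best with its own number, and the numbers were not taken to pair the samples, which does not exclude a pairing.

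Log2 fold changes of Tnf reversed to 0.090 in replicates 3 to 6 (leaving out 1 library, -0.28 to 0.0019), of Il1b to -0.0076 (-0.035 to 0.22), of Il1rn to -0.017 with the matrix score and -0.075 without DMSO replicates 3 and 5 (-0.044 to 0.18), of Il18 to -0.031 without those 2, and of Il18bp between -0.17 and 0.11 with 1 library left out. The log2 ratio of Il1rn to Il1b became 0.042 in replicates 3 to 6 and ran from -0.071 to 0.10. No reversed value passed a test. The unadjusted p was under 0.05 in 18 of 25 alternatives for Tnfrsf1a and in 16 of 25 for Tnfrsf1b. With 1 library left out, Tnfrsf1a missed it when DMSO 4, DMSO 5 or picrotoxin 5 was dropped, and Tnfrsf1b when DMSO 1, 3 or 4 or picrotoxin 4 or 6 was. Depth limits Il1a, Il1r2 and Il18, at 10 or fewer molecules a library.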
